A study of Mus musculus with 9 samples.

Results

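The transcripts of 10 heat-shock chaperone genes were followed in sorted monocytes of an NMO-like mouse model: Hspa1a, Hspa1b, Hspa5, Hspa8, Hsp90aa1, Hsp90ab1, Hsph1, Dnaja1, Dnajb1 and Hspb1. They were taken by symbol from the 23238 gene symbols of the count tables, and all 10 were among the 10107 genes with enough counts to be tested. Neuromyelitis optica (NMO) is an autoimmune disease in which autoantibodies (NMO-IgG) bind the astrocyte water channel aquaporin 4. QuantSeq 3ʹ RNA sequencing, which reads each transcript near its 3ʹ end, was carried out on 9 libraries in 3 groups of 3: monocytes from normal blood (Nor_Bl_mono), from the blood of NMO mice (NMO_Bl_mono) and from the brain of NMO mice (NMO_Br_mono). The animals were female C57BL/6N mice of WT genotype aged 12 weeks, and every library was a pool of 5 mice on day 1. NMO mice had received 3 µl of 50 mg/ml NMO-IgG with 5% human complement in the striatum of one hemisphere, and normal mice were left untreated, so that the injection itself had no control among these libraries.

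All cells were sorted as CD45+, CD11b+, P2ry12-, Ly6C+ and Ly6G-. The brain was dissociated with an enzyme mix for 30 min at 37 °C and passed over Percoll, whereas blood cells were separated on a density gradient medium. Every NMO_Br_mono library and no blood library went through that warm step, and brain monocytes of normal mice were not among the libraries. For every chaperone described here, therefore, the tissue, the lesion and the cell preparation cannot be told apart. In bulk libraries, fewer cells of a type and less RNA per cell cannot be told apart either.

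Heat-shock proteins are molecular chaperones. HSP70 proteins bind exposed stretches of unfolded proteins and release them in cycles driven by ATP, J-domain proteins bring the substrates and start the ATP cycle, HSP110 proteins exchange the nucleotide, HSP90 proteins hold signaling proteins in an active shape, and small heat-shock proteins hold unfolding proteins in solution without ATP. When unfolded proteins accumulate, the transcription factor HSF1 is freed from chaperones and binds heat-shock elements in the promoters of inducible members such as Hspa1a and Hspa1b, whereas Hspa8 and Hsp90ab1 are expressed in most cells at all times. Hspa5 (BiP) is the HSP70 of the endoplasmic reticulum (ER) and belongs to the unfolded protein response. In immune cells the inducible set is known to respond to fever, inflammation and tissue handling.

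The promoters of the members that differ in their known control are shown first, so that the levels below can be read beside them. RefSeq promoters of build GRCm38.p6 were found for 7 of the 10 members, 11 promoters in all, and Hspa8, Hsp90aa1 and Hsp90ab1 were not matched. The lines of Hspa1a and Hspb1 give the 250 bases before the RefSeq transcription start and that of Hspa5 30 bases around its element, each 5ʹ to 3ʹ on the strand of the gene. Capitals mark a heat-shock element of 2 units (GAANNTTC or TTCNNGAA, each the same on both strands) in Hspa1a and Hspb1, and in Hspa5 an ER stress element (CCAAT and CCACG with 9 bases between them). The windows are chr17:34972157-34972406 on the minus strand, chr5:135887669-135887918 on the plus strand and chr2:34772020-34772049 on the plus strand, in this order.
Hspa1a: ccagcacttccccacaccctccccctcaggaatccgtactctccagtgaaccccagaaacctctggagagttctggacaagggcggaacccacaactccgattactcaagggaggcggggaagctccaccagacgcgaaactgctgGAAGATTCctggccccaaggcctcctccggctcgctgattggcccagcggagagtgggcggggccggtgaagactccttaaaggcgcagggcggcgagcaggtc
Hspb1: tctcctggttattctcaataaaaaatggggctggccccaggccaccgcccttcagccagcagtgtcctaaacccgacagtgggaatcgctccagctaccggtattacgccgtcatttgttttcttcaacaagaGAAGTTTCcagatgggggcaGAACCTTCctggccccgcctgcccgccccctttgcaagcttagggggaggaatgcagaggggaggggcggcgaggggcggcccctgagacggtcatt
Hspa5: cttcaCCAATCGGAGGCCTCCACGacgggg

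A 2-unit element was found in 15.1% of all 32851 mouse promoters of 300 bases (250 before to 50 after the start), so a single match is common. Hspa1a had 1 match, beginning 104 bases before the start, and Hspb1 had 2, beginning 117 and 97 bases before it. The promoter of Hspa1b had the same match at the same place, and differed from that of Hspa1a at 4 of 300 bases (C44T, T47C, T249G and C276T, with the base of Hspa1a first and positions counted from 1 at the 5ʹ end of the window). The promoters of Hsph1 overlapped and held the same 3 matches, 2 of them overlapping in an element of 3 units. This element lay after the start in each of its promoters, and 0.603% of all promoters held an element of 3 units. Dnaja1 had 1 match in 1 of 3 promoters and Dnajb1 had 0 in 2. Hspa5 had 0 matches of the heat-shock element, and its ER stress element, beginning 65 bases before the start, was found in 0.119% of all promoters. The RefSeq start of Hspa5 lies 120 bases after the gene start of the GENCODE models, so that this element is inside the gene by those models. These are matches of letters and not measured binding.

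Hspa1a and Hspa1b are neighbors on chromosome 17, at chr17:34969190-34972156 and chr17:34956436-34959238 of mm10, both on the minus strand and 9951 bases apart. Their coding sequences were 99.4% identical, and 75.4% of the 75-base stretches of the Hspa1a coding sequence, the length of the reads, occurred unchanged in Hspa1b. After the coding sequence the identity was 47.5% and 0 such stretches were shared. Because reads that align to several places were counted, the split between both genes is uncertain where reads fell in the coding sequence, and the pair is given both separately and as a sum. A predicted gene on the other strand (Gm20481) overlaps Hspa1a, and Smu1 and Gm6297 overlap Dnaja1, and it is not stated whether counting used the strand. The other members lie apart from each other, Hspa5 at chr2:34771970-34777547, Hspa8 at chr9:40800984-40810087, Hsp90aa1 at chr12:110690605-110702728, Hsp90ab1 at chr17:45567775-45573271, Hsph1 at chr5:149614287-149636376, Dnaja1 at chr4:40722150-40737149, Dnajb1 at chr8:83608193-83612653 and Hspb1 at chr5:135887919-135889563, and all 10 genes are protein coding.

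Between NMO_Br_mono and NMO_Bl_mono, 9 of the 10 chaperones had a higher fitted level in the brain libraries, and the inducible pair and Hspb1 differed most. The median log2 fold change of the 10 members was 1.37, beside 0.05 over all genes tested. In 8 of the 10, every brain library lay above every NMO_Bl_mono library, which held for 6.3% of all genes tested, and the same 8 lay above all 6 blood libraries. With edgeR's quasi-likelihood test, however, 0 of the 10 had an adjusted p under 0.05, a call made higher in brain for 0.0198% of all genes. At an unadjusted p under 0.05 with a fold change of 1.2, the threshold of the study, 5 of the 10 were higher (Hspa1a, Hspa1b, Hspa8, Hsp90aa1 and Hspb1), beside 1.48% of all genes. After adjustment, DESeq2 called 3 members higher (Hspa1a, Hsp90aa1 and Hspb1), beside 0.803% of the genes it tested, and limma-voom 1 (Hspb1), beside 0.435%. Hspa1a and Hspa1b may share reads, so they are not separate observations in these counts of members. The spread behind these tests was wide, with a common dispersion of 2.87.

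**Figure D1:**
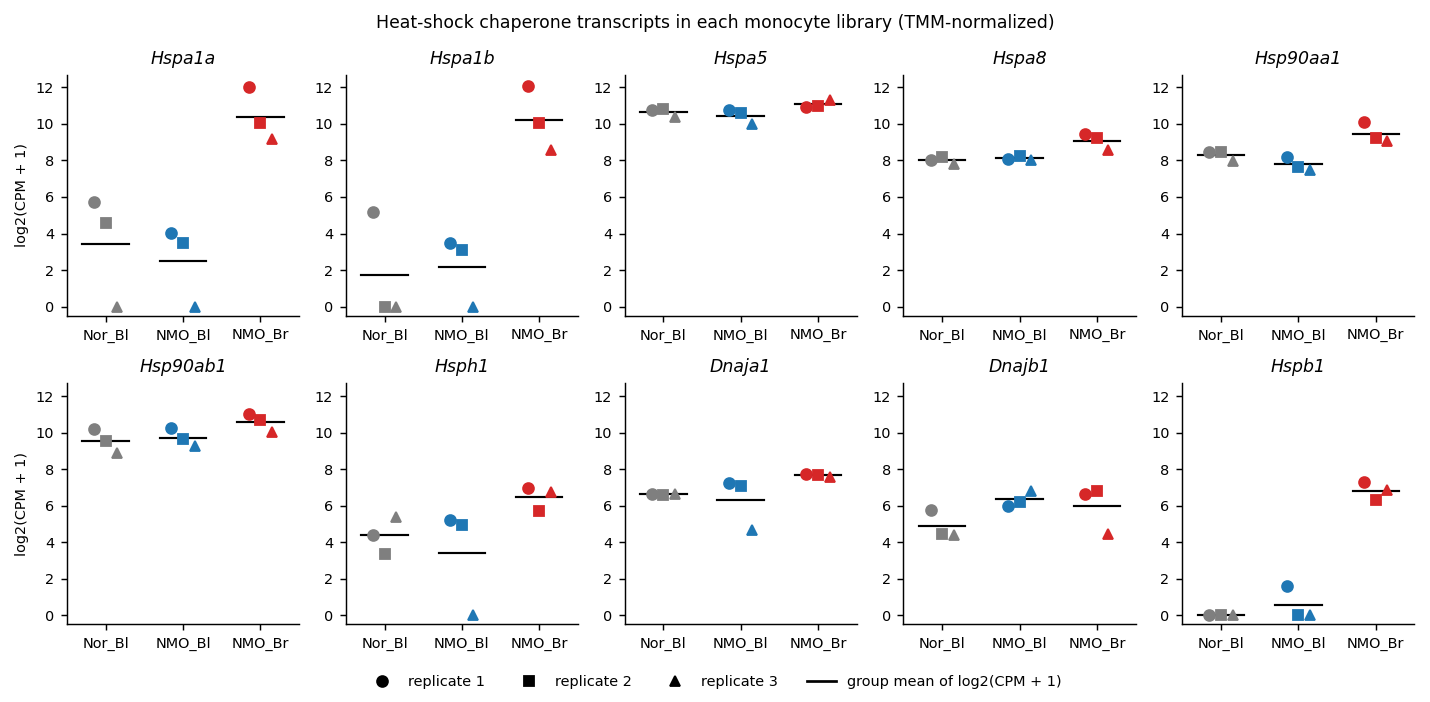
Level of each of the 10 chaperone transcripts in the 9 libraries, as log2(CPM + 1), where CPM is the count scaled by library size and TMM factor, with a symbol for each replicate and a line at the mean of each group. Hspa1a, Hspa1b and Hspb1 separate the NMO_Br_mono libraries from the blood libraries by the widest gap, and Dnajb1 and Hsp90ab1 overlap between the groups.

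Libraries held 7584649 to 10419647 counts, and values are given in CPM after TMM scaling (factors of 0.800 to 1.46). A count of 0 allows up to 3 counts, or 0.271 to 0.429 CPM depending on the library, and this covers counting error only. NMO_Bl_mono replicate 3 stood apart with 4567 genes detected, where the other libraries had up to 11556. It had at most 3 counts for 22.3% of the genes that were high in the other replicates of its group. For NMO_Br_mono replicate 2 this share was 8.26%. An alternative without these 2 libraries was chosen after seeing the data. The counts of members above were then again 0 after adjustment, 5 at the unadjusted threshold and 8 without overlap. Fewer libraries were left in both NMO groups, so non-overlap was easier to reach. For this setting, the shares of all genes at the unadjusted threshold and without overlap were not computed.

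Hspa1a encodes the inducible cytosolic HSP70 and was close to absent in blood. It was measured at 4112 CPM, 1051 CPM and 566 CPM in the NMO_Br_mono libraries (replicates 1, 2 and 3). In NMO_Bl_mono it was at 15.5 CPM, 10.3 CPM and 0 CPM, and in Nor_Bl_mono at 51.6 CPM, 22.6 CPM and 0 CPM. Every brain library was far above every blood library, the brain libraries also differed widely among themselves, and replicate 3 of both blood groups had no count. The log2 fold change of NMO_Br_mono against NMO_Bl_mono was 7.79 ± 1.96 (SE), with an adjusted p of 0.242. It was called with DESeq2 (adjusted p = 0.0144). Without an expression filter it was also called (1.91e-42), where the standard error fell to 0.54 on the same counts of Hspa1a.

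Hspa1b encodes almost the same protein and followed Hspa1a library by library, which is not a separate observation where reads were shared. Its level was 4239 CPM, 1052 CPM and 380 CPM in NMO_Br_mono, 10.37 CPM, 7.40 CPM and 0 CPM in NMO_Bl_mono, and 34.7 CPM, 0 CPM and 0 CPM in Nor_Bl_mono. The groups of brain and blood libraries did not overlap, and Nor_Bl_mono replicate 2 had counts of Hspa1a alone. Against NMO_Bl_mono the log2 fold change was 8.32 ± 2.33 (SE), with an adjusted p of 0.354. In the brain libraries Hspa1a held 49.2%, 49.99% and 59.8% of the counts of the pair.

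The sum of both genes does not depend on how shared reads were divided between them, although a read counted at both genes would enter it more than once, and whether that was done is not stated. It was 8351 CPM, 2104 CPM and 947 CPM in NMO_Br_mono, 25.9 CPM, 17.7 CPM and 0 CPM in NMO_Bl_mono, and 86.3 CPM, 22.6 CPM and 0 CPM in Nor_Bl_mono. The lowest brain library was 10.97 times the highest blood library, and the brain libraries spanned an 8.82-fold range. For the sum, the log2 fold change between NMO_Br_mono and NMO_Bl_mono was 8.03 ± 2.07 (SE), with an adjusted p of 0.282, and it was 7.75 (adjusted p = 0.257) without the 2 libraries with many missing genes. It passed an adjusted p of 0.05 with no expression filter (3.61e-86) and with DESeq2 (0.0177) but not with limma-voom (0.863).

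The whole set took a larger share of the counts in the brain libraries. The 10 chaperones held 1.25%, 0.795% and 0.619% of all counts in NMO_Br_mono, and 0.262% to 0.320% in the 6 blood libraries. The inducible pair made up 56.6%, 28.5% and 16.1% of these chaperone counts in the brain libraries and at most 2.28% in blood. Every brain library was above every blood library for the set as a whole, and brain replicate 1 stood highest through the pair.

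**Figure D2:**
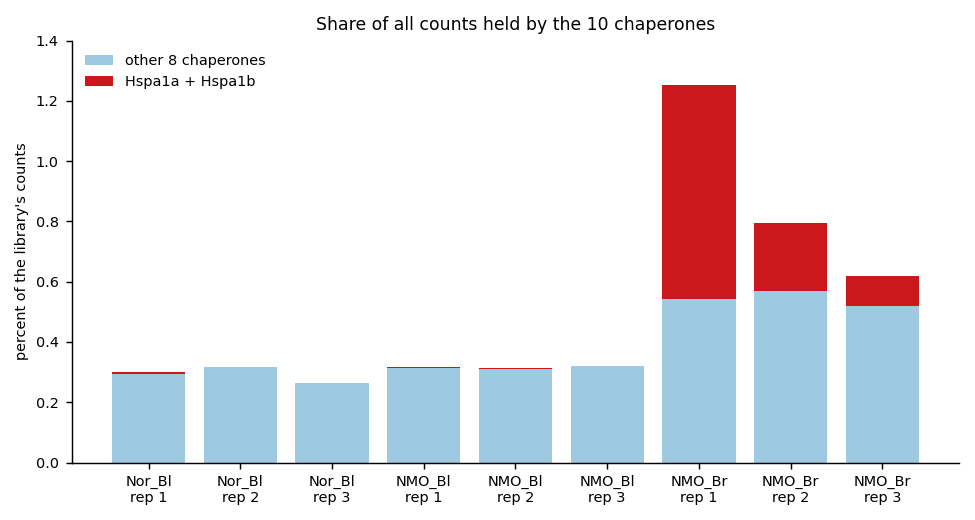
Percent of the counts of each library held by Hspa1a and Hspa1b together (red) and by the other 8 chaperones (blue), stacked, in the 9 libraries. The stacks reach 0.619% to 1.25% in NMO_Br_mono and 0.262% to 0.320% in blood, and the red part is at most a thin edge in blood.

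Hspb1 (HSP25 in mice), a small heat-shock protein that also binds actin filaments, was detected almost only in the brain libraries. It was measured at 154 CPM, 77.9 CPM and 114 CPM in NMO_Br_mono and at 2.10 CPM (15 counts), 0 CPM and 0 CPM in NMO_Bl_mono, and had no count in the 3 Nor_Bl_mono libraries. Unlike the HSP70 pair, the brain libraries were within a 1.98-fold range. The log2 fold change between NMO_Br_mono and NMO_Bl_mono was 7.36 ± 2.37 (SE), with an adjusted p of 0.645, and against Nor_Bl_mono, by the mean and the floor of 3 counts per library, Hspb1 was at least 329-fold higher (adjusted p = 0.173). DESeq2 and limma-voom called it in both comparisons, with adjusted p-values of 0.00161 and 0.0257 against NMO_Bl_mono. It was also called against Nor_Bl_mono without NMO_Bl_mono replicate 3 (0.0306).

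The cytosolic HSP90 proteins come in an inducible and a constitutive form. Hsp90aa1, the inducible form, was at 1115 CPM, 589 CPM and 534 CPM in NMO_Br_mono, at 294 CPM, 202 CPM and 180 CPM in NMO_Bl_mono, and at 357 CPM, 347 CPM and 250 CPM in Nor_Bl_mono. Every brain library was above every blood library. Its log2 fold change between NMO_Br_mono and NMO_Bl_mono was 1.73 ± 0.43 (SE), with an adjusted p of 0.236, and DESeq2 called it (adjusted p = 0.0156), as did edgeR when only genes with at least 10 counts in every library were kept (0.0490).

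Hsp90ab1, the constitutive form, was at 2064 CPM, 1623 CPM and 1063 CPM in NMO_Br_mono, at 1232 CPM, 806 CPM and 613 CPM in NMO_Bl_mono, and at 1174 CPM, 755 CPM and 472 CPM in Nor_Bl_mono. Brain replicate 3 fell below the highest library of either blood group. Its log2 fold change against NMO_Bl_mono was 0.84 ± 0.40 (SE), with an adjusted p of 0.802. Within each library, the ratio of Hsp90aa1 to Hsp90ab1 counts was 0.540, 0.363 and 0.502 in NMO_Br_mono, 0.239, 0.251 and 0.293 in NMO_Bl_mono, and 0.304, 0.459 and 0.529 in Nor_Bl_mono. By this ratio, which does not depend on the scaling of a library, every brain library lay above every NMO_Bl_mono library but overlapped Nor_Bl_mono.

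Hspa8 (HSC70), the constitutive cytosolic HSP70, was measured at 699 CPM, 594 CPM and 382 CPM in NMO_Br_mono. It was at 270 CPM, 305 CPM and 258 CPM in NMO_Bl_mono and at 261 CPM, 293 CPM and 224 CPM in Nor_Bl_mono. The blood groups were nearly level with each other and every brain library stood above them. Its log2 fold change between NMO_Br_mono and NMO_Bl_mono was 1.01 ± 0.41 (SE), with an adjusted p of 0.802. The ratio of the inducible pair to Hspa8 within a library was 11.9, 3.54 and 2.48 in NMO_Br_mono and at most 0.331 in blood, without overlap.

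Hsph1, the inducible HSP110 that exchanges the nucleotide of HSP70, was low and varied in blood. Its values were 123 CPM, 52.2 CPM and 109 CPM in NMO_Br_mono, 36.8 CPM, 30.04 CPM and 0 CPM in NMO_Bl_mono, and 20.1 CPM, 9.09 CPM and 41.5 CPM in Nor_Bl_mono. The brain libraries lay above all 6 blood libraries, with a log2 fold change of 2.09 against NMO_Bl_mono whose standard error was 1.66 (adjusted p = 1).

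**Figure D3:**
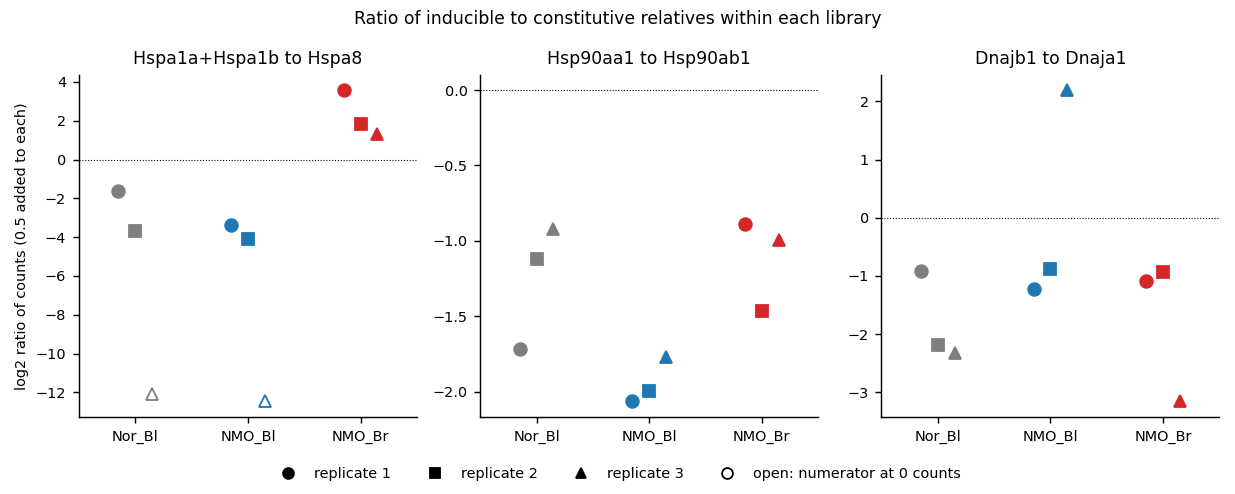
Log2 ratio of counts within each library (0.5 added to each count) for Hspa1a and Hspa1b together to Hspa8, Hsp90aa1 to Hsp90ab1, and Dnajb1 to Dnaja1, with open symbols where the numerator had no count. The ratio of the pair to Hspa8 is above 0 on the log2 scale in the 3 NMO_Br_mono libraries and below 0 in the 6 blood libraries, and the other ratios of NMO_Br_mono overlap those of Nor_Bl_mono.

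Of the J-domain partners of HSP70, Dnaja1 separated the tissues and Dnajb1 did not. Dnaja1, a J-domain protein of the cytosol, was at 210 CPM, 207 CPM and 189 CPM in NMO_Br_mono, the narrowest range of any member there, at 148 CPM, 133 CPM and 24.5 CPM in NMO_Bl_mono and at 101 CPM, 96.3 CPM and 98.9 CPM in Nor_Bl_mono. Every brain library was above every blood library, and NMO_Bl_mono replicate 3 was far below the other replicates. For Dnaja1 the log2 fold change against NMO_Bl_mono was 0.99 ± 0.70 (SE), with an adjusted p of 1.

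Dnajb1 (HSP40), the inducible partner, was the member without a higher fitted level in NMO_Br_mono than in NMO_Bl_mono. It was at 98.6 CPM, 109 CPM and 21.2 CPM in NMO_Br_mono, at 63.0 CPM, 72.2 CPM and 113 CPM in NMO_Bl_mono, and at 53.4 CPM, 21.0 CPM and 19.7 CPM in Nor_Bl_mono. Brain replicate 3 was at the level of the lowest normal libraries, and NMO_Bl_mono replicate 3, the library with few genes, had the highest value of all. Between NMO_Br_mono and NMO_Bl_mono its log2 fold change was -0.11 ± 1.00 (SE), with an adjusted p of 1, and it turned to 0.19 without NMO_Bl_mono replicate 3 and to 0.35 without NMO_Br_mono replicate 3. The ratio of Dnajb1 to Dnaja1 was 0.470, 0.526 and 0.112 in the brain libraries and 0.200 to 4.58 in blood.

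Hspa5 had the smallest positive change of the members. It was measured at 1934 CPM, 2014 CPM and 2517 CPM in NMO_Br_mono, at 1752 CPM, 1550 CPM and 1015 CPM in NMO_Bl_mono, and at 1734 CPM, 1769 CPM and 1350 CPM in Nor_Bl_mono. The lowest brain library was 1.09 times the highest blood library. The brain libraries also had a different order from that of the inducible pair, with replicate 3 highest for Hspa5 and lowest for the pair. The log2 fold change between NMO_Br_mono and NMO_Bl_mono was 0.58 ± 0.27 (SE), with an adjusted p of 0.802.

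**Figure D4:**
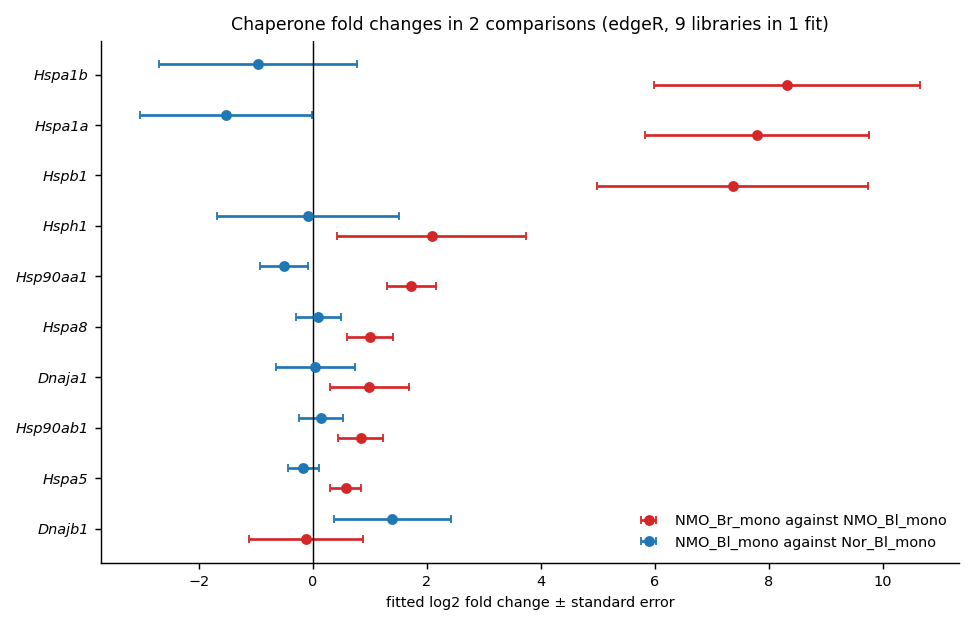
Fitted log2 fold change with its standard error for each chaperone in NMO_Br_mono against NMO_Bl_mono (red) and NMO_Bl_mono against Nor_Bl_mono (blue), from edgeR with 9 libraries in 1 fit. The red values run from -0.11 for Dnajb1 to 8.32 for Hspa1b, the blue values lie on both sides of 0, and the blue value of Hspb1 is left out because Nor_Bl_mono had no count.

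The comparison of NMO_Bl_mono with Nor_Bl_mono asks whether the model changed circulating monocytes, without the difference in tissue and preparation. Here 0 of the 10 chaperones had an adjusted p under 0.05 with edgeR, where 0% of all genes were called, and DESeq2 and limma-voom called 0 members, beside 0.719% and 0% of all genes. At the unadjusted threshold 1 passed, beside 0.712% of all genes, and this was Hspb1 on its 15 counts in a single library. The median log2 fold change of the members was -0.02 (all genes, -0.16), with 5 of the 10 positive. In Dnajb1 alone every NMO_Bl_mono library lay above every Nor_Bl_mono library, a separation in either direction that 6.8% of all genes showed, and its log2 fold change was 1.396 ± 1.02 (SE), with an adjusted p of 1.

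In blood the inducible pair was low in both groups. Summed, it had a log2 fold change of -1.32 between the blood groups ± 1.56 (SE), with an adjusted p of 1, which rested on the normal library with the highest value, since it was 0.36 without Nor_Bl_mono replicate 1. Hspa8 and Hspa5 had log2 fold changes of 0.10 and -0.17 with standard errors of 0.40 and 0.27. For Hsp90aa1 the value was -0.50 (standard error 0.42). None of these 4 differences passed the test, and the groups overlapped in each.

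NMO_Br_mono was also compared with Nor_Bl_mono and with the mean of both blood groups, which share the brain libraries with the first comparison and are not separate evidence. Against Nor_Bl_mono the log2 fold changes were 6.27 for Hspa1a, 7.36 for Hspa1b, 0.41 for Hspa5, 1.11 for Hspa8, 1.23 for Hsp90aa1, 0.98 for Hsp90ab1, 2.01 for Hsph1, 1.04 for Dnaja1 and 1.28 for Dnajb1. All 10 members were higher, with a median of 1.26 (all genes, -0.12). With edgeR 0 had an adjusted p under 0.05 (higher calls, 0.0297% of all genes), DESeq2 and limma-voom each called 1 (1.23% and 0.267% of all genes), 6 passed the unadjusted threshold (1.75% of all genes), and 8 had no overlap (6.07%).

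Against both blood groups together, 1 of the 10 was called after adjustment, beside 0.139% of all genes. Hspa1a rose by a log2 fold change of 7.03 ± 1.39 (SE), with an adjusted p of 0.0438, higher in 3 of 3 brain libraries than in any blood library. The call was lost without NMO_Br_mono replicate 1 (adjusted p = 0.153), without NMO_Br_mono replicate 2 (0.0808) and with limma-voom (0.526). The summed pair also passed, at 7.37 ± 1.47 (SE), with an adjusted p of 0.0461, and lost the call without NMO_Br_mono replicate 1 (0.141), NMO_Br_mono replicate 2 (0.0833) or Nor_Bl_mono replicate 3 (0.0501) and with limma-voom (0.819). Hspb1 (adjusted p = 0.0503), Hspa1b (0.0618) and Hsp90aa1 (0.113) followed without reaching the threshold. At the unadjusted threshold 7 of the 10 passed, beside 2.62% of all genes, and 8 had every brain library above every blood library, beside 3.57%.

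Transcripts of other cell types moved with the brain group. Of 10 monocyte markers all were detected in each group, with a summed level of 4680 to 7797 CPM in NMO_Br_mono, 4016 to 6535 CPM in NMO_Bl_mono and 5110 to 6795 CPM in Nor_Bl_mono, although Ly6c2, part of the sort, was at 437 CPM, 59.4 CPM and 199 CPM in the brain libraries and at 496 to 739 CPM in NMO_Bl_mono. Of 10 microglia markers all had counts in NMO_Br_mono, but only 6 were over 3 counts in each of its libraries. The 10 markers summed to 832 to 976 CPM there, against 0.0909 to 244 CPM in NMO_Bl_mono and 143 to 396 CPM in Nor_Bl_mono. A large part of these sums was Cx3cr1, a marker that the study describes as shared by monocytes and microglia. It was at 544 CPM, 297 CPM and 337 CPM in NMO_Br_mono and at up to 322 CPM in blood. Tmem119, Olfml3, Gpr34 and Fcrls were at 0 in both blood groups. In the brain, Tmem119 was at 0 in replicate 2 and Gpr34 in replicates 2 and 3. P2ry12, on which cells were sorted as negative, was at 23.7 CPM, 69.7 CPM and 9.95 CPM in the brain libraries and at up to 43.4 CPM in Nor_Bl_mono.

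Markers of neutrophils (6 of 7 detected) summed to 322 to 1557 CPM in NMO_Br_mono, above 126 to 192 CPM in NMO_Bl_mono and 59.6 to 242 CPM in Nor_Bl_mono, with Retnlg at 0 in the brain. Most of the brain sum was S100a8 and S100a9 in replicate 2 (813 CPM and 660 CPM) and in replicate 3 (390 CPM and 433 CPM). Only these 2 of the 7 markers were over 3 counts in every brain library. Mpo and Elane were at 0 in replicate 1, and Camp and Ltf in replicate 2. Endothelial markers (4 of 4) summed to 115 to 649 CPM in the brain libraries, 27.3 to 95.9 CPM in NMO_Bl_mono and 5.62 to 106 CPM in Nor_Bl_mono, and Cldn5 was at 0 in blood. Most of the highest endothelial sum was Flt1 in NMO_Br_mono replicate 3 (554 CPM), and both Flt1 and Cldn5 were at 0 in NMO_Br_mono replicate 2. Markers of NK cells were lower in the brain libraries (21.3 to 336 CPM against 1778 to 2678 CPM in blood), as were those of platelets (0 to 39.7 CPM against 241 to 1745 CPM) and of red blood cells (1.05 to 402 CPM against 898 to 5403 CPM). Markers of border macrophages summed to 70.1 to 149 CPM in NMO_Br_mono and 108 to 555 CPM in blood. Most of the blood sum was Pf4, which was also counted among the platelet markers. Pf4 was at 108 to 542 CPM in blood and at 22.6 CPM, 0 CPM and 0 CPM in the brain libraries. Mrc1 and Ms4a7 went the other way, at 25.3 to 62.1 CPM and 14.5 to 51.9 CPM in the brain libraries. In blood they were at up to 15.4 CPM and 6.96 CPM. Cd163 and Lyve1 each had counts in a single brain library (18.6 CPM and 34.7 CPM). The sums of B cell, T cell, astrocyte, oligodendrocyte and neuron markers were at most 37.8 CPM in the brain libraries, and the astrocyte genes Aqp4 and Slc1a3 were at 0 there. The part of these other cells in the chaperone levels was not tested.

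Genes outside the members were taken from lists of related function that were chosen with earlier results of these data known. In NMO_Br_mono against NMO_Bl_mono, 0 genes of any list had an adjusted p under 0.05 with edgeR or limma-voom, and DESeq2 called Tsc1 and Dusp2, both lower in the brain (lower calls, 2.7% of the genes it tested). The list of HSF1, its partners and its other targets had 22 of 24 genes tested and a median log2 fold change of 0.19. At the unadjusted threshold, 0 passed in either direction. Every brain library was above every NMO_Bl_mono library in 0 of these genes, beside 6.3% of all genes. In 1 gene (Cacybp) every brain library was below, beside 6.05% of all genes. Genes of high level in this list included Ier5, a regulator of HSF1 (0.18, standard error 0.66), Sqstm1, the p62 receptor of selective autophagy (-0.26, standard error 0.59), and Dnajb4 (-0.67, standard error 1.24). Against Nor_Bl_mono, 3 genes of this list had every brain library above (all genes, 6.07%) and 0 passed the unadjusted threshold, and against both blood groups 1 was higher at that threshold (all genes, 2.62%).

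Of the other HSP70, HSP110 and HSP90 genes, 9 of 12 were tested and 0 passed the unadjusted threshold, with a median of 0.35. Every brain library was above every NMO_Bl_mono library in 2 of them (Hspa4 and Hyou1), beside 6.3% of all genes. In 1 (Trap1) every brain library was below, beside 6.05% of all genes. Hspa4, an HSP110, was at 195 CPM, 348 CPM and 244 CPM in NMO_Br_mono and at 149 CPM, 132 CPM and 155 CPM in NMO_Bl_mono, without overlap, and its log2 fold change was 0.85 ± 0.51 (SE), with an adjusted p of 0.926. The mitochondrial HSP70 Hspa9 had a log2 fold change of 0.35 (standard error 1.46) and Hspa14, which works at the ribosome, one of 0.30 (standard error 1.08). Of the other J-domain genes, 27 of 29 were tested, with a median of -0.32. Every brain library was above every NMO_Bl_mono library in 0 of them and below in 2 (Dnajb2 and Dnajb12). In this list 1 gene passed the unadjusted threshold, and it was lower in the brain, as were 3.84% of all genes: Dnajc9, a histone chaperone, had no count in NMO_Br_mono and was at 13.3 CPM, 26.0 CPM and 0 CPM in NMO_Bl_mono. Dnajc8, Dnaja2, Dnajc3 and Sec63 had log2 fold changes of -0.57, -0.32, 0.57 and -0.32, each with a standard error of at least 0.52.

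Co-chaperones of HSP70 and HSP90 had 27 of 28 genes tested and a median of 0.06. Every brain library was above every NMO_Bl_mono library in 1 of them (St13), beside 6.3% of all genes. In 3 (Bag6, Cacybp and Tsc1) every brain library was below, beside 6.05% of all genes. Tsc1, known as a co-chaperone of HSP90 and a subunit of the tuberous sclerosis complex, was lower in NMO_Br_mono than in NMO_Bl_mono at the unadjusted threshold. It was at 1.24 CPM, 1.05 CPM and 0 CPM against 20.9 CPM, 33.1 CPM and 105 CPM, the last in replicate 3, the library with few genes. In Nor_Bl_mono it was at 11.7 CPM, 5.71 CPM and 0 CPM, which overlapped the brain libraries. Of the co-chaperones of high level, Fnip1, Ptges3 and Cdc37 had log2 fold changes of -0.15, 0.80 and 0.12, and the groups overlapped in each. Chaperonins, the barrel-shaped folding machines, had all 10 genes tested, 0 past the unadjusted threshold and a median of 0.36, with Cct8, Cct2, Cct3 and Cct7 at -0.02, -0.50, 0.30 and 0.97. Of 9 other small heat-shock protein genes, 6 had a count and 0 had enough counts to be tested, so Hspb1 was the only tested gene of its family.

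The list of ER chaperones and the unfolded protein response, the setting of Hspa5, had 27 of 28 genes tested, with 0 past the unadjusted threshold, 19 positive and a median of 0.50, near the value of Hspa5. Hsp90b1, the HSP90 of the ER, had a mean level of 645 ± 125 CPM in the brain libraries and 457 ± 90.3 CPM in blood of NMO mice (SD, n = 3 each), and Calr, a chaperone of glycoproteins, one of 616 ± 281 CPM and 455 ± 125 CPM. The groups overlapped in both, whereas every brain library was above in 4 of the 27 genes (Pdia6, P4hb, Hyou1 and Manf), beside 6.3% of all genes. Atf4, a transcription factor of the stress response, and Ppp1r15a, which restarts translation, had log2 fold changes of -0.11 and -0.88. Against Nor_Bl_mono the median of this list was 0.79 and 2 genes were higher at the unadjusted threshold, beside 1.75% of all genes.

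**Figure D5:**
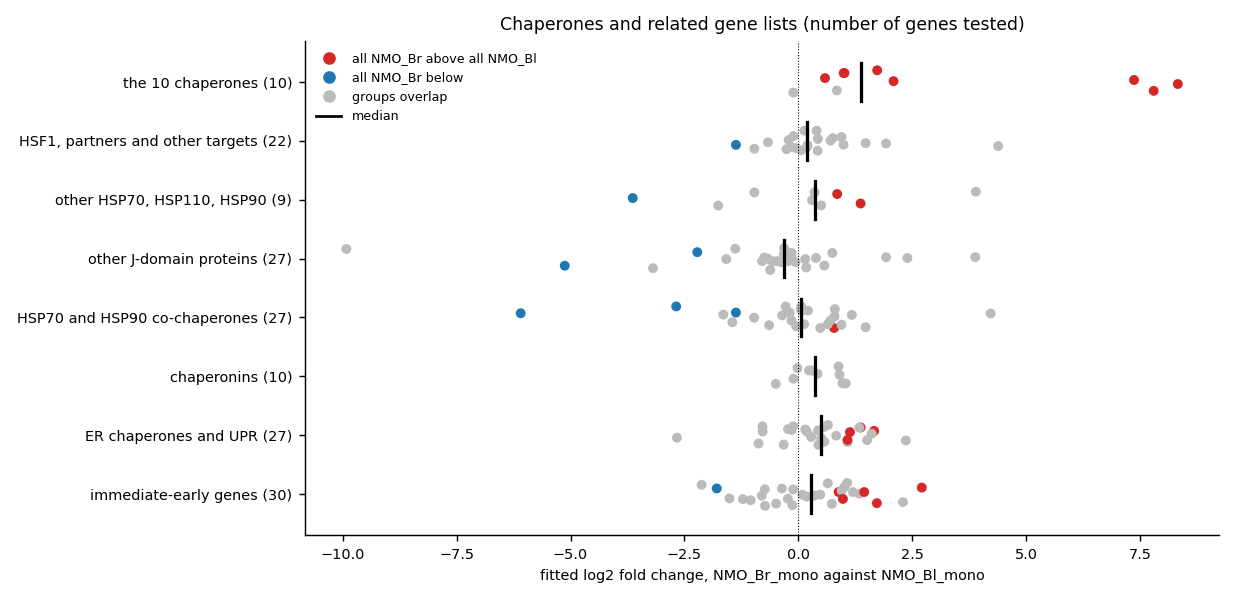
Fitted log2 fold change of NMO_Br_mono against NMO_Bl_mono for each tested gene of the 10 chaperones and of the related lists, with the median of each list as a bar, red where every brain library was above every NMO_Bl_mono library and blue where every one was below. The median of the chaperones is 1.37, and the medians of the other lists lie between -0.32 and 0.50.

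Immediate-early genes, which are known to be induced within minutes and also during dissociation of tissue, were followed because of the warm enzyme step. All 30 genes of this list were tested, 1 was higher and 3 were lower in the brain at the unadjusted threshold, beside 1.48% and 3.84% of all genes, and the median was 0.27. Ier3 was higher, at 370 CPM, 157 CPM and 294 CPM in NMO_Br_mono against 126 CPM, 86.1 CPM and 37.1 CPM in NMO_Bl_mono. Nfkbia, Dusp2 and Nfkbiz, feedback regulators of NF-κB and MAP kinase signaling, were lower, and for Dusp2 the groups did not overlap (144 CPM, 277 CPM and 156 CPM against 653 CPM, 957 CPM and 389 CPM). Jun was at 1524 CPM, 1158 CPM and 929 CPM in NMO_Br_mono but at 1142 CPM, 354 CPM and 84.0 CPM in NMO_Bl_mono, so that the groups overlapped, and Junb and Klf6 had log2 fold changes of -0.49 and -0.12. Every brain library was above in 5 genes of the list (Ier3, Dusp1, Nr4a1, Rhob and Cebpd) and below in 1 (Dusp2). Among all genes, 6.3% and 6.05% were so.

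The genes whose pattern over the 9 libraries was most like that of a member were named by the root mean square of the differences in log2(CPM + 1), after each gene was centred on its mean, among 5591 genes. This measure is a description over 9 libraries that share their tissue and depth. Nearest to the inducible pair were Clec4n (1.55), Dab2 (1.75), Il1b (1.89), AA467197 (1.89) and Cd300lf (2.10), where the median over all candidates was 4.38. Clec4n encodes the fungal receptor dectin-2 and was at 321 CPM, 156 CPM and 124 CPM in NMO_Br_mono, in the same order as the pair, and at up to 20.4 CPM in blood. Il1b, the cytokine interleukin-1β, was at 1595 CPM, 1515 CPM and 961 CPM in NMO_Br_mono and at up to 306 CPM in blood.

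Nearest to Hspa8 were Lrp1, an endocytic receptor (0.25), P4hb, a protein disulfide isomerase of the ER (0.32), Vav1 (0.32), Srgn (0.32) and Grb2 (0.32), with a median of 1.79 over all candidates. Lrp1 was at 503 CPM, 434 CPM and 304 CPM in NMO_Br_mono and at 125 to 246 CPM in blood. Nearest to Dnajb1 were Zc3h18 (0.51), Gnptab (0.51), Stag1 (0.52), Gm21188 (0.52) and Tceb2 (0.56), with a median of 2.17. Gnptab, which encodes a phosphotransferase of the lysosomal sorting pathway, was highest in NMO_Bl_mono replicate 3 (120 CPM), as was Dnajb1, and its lowest value was that of NMO_Br_mono replicate 3 (11.2 CPM).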

How the data were processed

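Sorted monocytes were sequenced as QuantSeq 3ʹ libraries (single-end, 75 bases). Per the labels and the study's methods, the authors used Bowtie2 for alignment, took unique as well as multiple alignments into the Bedtools coverage and deposited the raw read counts per gene symbol. The submitters' processing notes name mm10. Versions, the annotation and the strand setting are not given in the sources used here. Groups and replicate numbers come from the sample labels.

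Of 23282 entries, 35 symbols were repeated, of which the copy of highest count was used, giving 23238 symbols, 14442 of them with a count. Rn45s, a ribosomal RNA, held 28.4% to 43.6% of the counts. Differential expression was tested in R 4.3.3 with edgeR 4.0.16 (filterByExpr, TMM, glmQLFit and glmQLFTest) on all 9 libraries in 1 fit, with Benjamini-Hochberg adjustment over 10107 genes. The study's threshold (p under 0.05, fold change of 1.2) served as another call rule. Alternatives were RLE factors, library sizes alone, no Rn45s, no filter, a minimum of 10 counts in each library, a fit to the compared libraries alone, a replicate block, DESeq2 1.42.0, limma-voom (limma 3.58.1) with quality weights, summed repeated symbols and each library left out. The procedures were tested on simulated data. These had a much smaller dispersion than the libraries here and no library with many missing genes. How the procedures perform at the spread of these data was not tested.

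The members and lists were chosen with earlier results of these data known. The rule named all members, the 4 tested genes of highest mean CPM and any called gene of each list, and the 5 genes (mean of at least 20 CPM) most like the pair, Hspa8 and Dnajb1. Genes of the lists past the unadjusted threshold or without overlap in NMO_Br_mono against NMO_Bl_mono were named after their values were seen. Some genes that the rule names are not reported here. Gene positions are from GENCODE M21 (GRCm38), matched by symbol, and promoters from RefSeq. Replicates are separate pools of mice by the study's methods, and in the 9 pairs of libraries within a group none agreed within sampling noise.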

Additional observations from a re-analysis of the deposited data

How the results depend on the processing

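Of the chaperones with values in NMO_Br_mono against a blood group, all but Dnajb1 kept their direction in every alternative run. Dnajb1 was positive in 41 of 59 runs over these comparisons together. Its direction turned only against NMO_Bl_mono, to 0.19 without NMO_Bl_mono replicate 3 and to 0.35 without NMO_Br_mono replicate 3. Against Nor_Bl_mono and both blood groups it stayed positive. Limma-voom moved the median of all genes to -0.65 from 0.05, so its fold changes are relative to that shift.

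Members called in NMO_Br_mono against NMO_Bl_mono (0) became 2 without a filter, 1 with at least 10 counts in every library, 3 with DESeq2 and 1 with limma-voom, and 0 to 1 with a library left out. All genes called (25) became 110, 16, 336 and 51 in the same order, 7 with only the libraries compared, 61 without both libraries with many missing genes, and 15 to 36 with a library left out. The summed pair was called without a filter (8.003) and with DESeq2 (8.11). Against Nor_Bl_mono, members called (0) became 3 without a filter and 1 with DESeq2, with limma-voom, with only the libraries compared and without both libraries, and 0 to 1 with a library left out. Those at the unadjusted threshold (6) became 3 with at least 10 counts, and 3 to 8 with a library left out. All genes called (25) became 115 without a filter, 366 with DESeq2, 107 without both libraries, and 11 to 62. Against both blood groups, members called (1) became 3 with RLE factors and with library sizes alone, 4 without a filter and with DESeq2, 2 with limma-voom and without both libraries, and 0 to 2 with a library left out. All genes called (44) became 68 with library sizes alone, 181 without a filter, 495 with DESeq2, 122 with limma-voom, 128 without both libraries, and 21 to 90. The summed pair lost its call with limma-voom (6.88), and ranged from 6.05 to 8.21 with a library left out.

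Between the blood groups, members at the unadjusted threshold (1) became 3 without a filter and 0 with at least 10 counts, with limma-voom and with only the libraries compared, and 0 to 1 with a library left out. Members with every library above (1) became 2 without both libraries, and 1 to 2 with a library left out. All genes called (0) became 2 without a filter and 69 with DESeq2. Direction turned for the summed pair with limma-voom (0.06) and without a library (-2.03 to 0.36), for Hspa1b with limma-voom (2.88) and without a library (-1.64 to 8.82), Hspa5 (0.032 without both libraries, 0.033 without NMO_Bl_mono replicate 3, -0.34 at the lowest), Hsp90ab1 (-0.18 to 0.53, with -0.13 without Nor_Bl_mono replicate 3), Hsph1 (1.00 with limma-voom, 0.51 without both libraries, -0.65 to 0.61) and Dnaja1 (-0.33 to 0.51, with -0.19 without NMO_Bl_mono replicate 2). Dnajb1 between the NMO groups ranged from -0.45 to 0.35, with 0.19 without NMO_Bl_mono replicate 3. The cause of these turns was not tested.

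Whether the replicate numbers pair the libraries is not stated. Correlations of deviations from the group means ran from -0.01 to 0.12 for same-numbered libraries, with 1 of 9 over 0.1. For libraries of other numbers they ran from -0.096 to 0.03. Of the 9 libraries, 7 correlated best with their own number, a hint from the data and not the design. With the replicate number as a block, members called were 1 (NMO_Br_mono against NMO_Bl_mono), 2 (Nor_Bl_mono) and 2 (both blood groups), and 0 between the blood groups at the unadjusted threshold. The summed pair was then called in NMO_Br_mono against NMO_Bl_mono (9.84, adjusted p = 0.0217), as was Hspa1a (9.53, adjusted p = 0.0245), with Hspa1b between the blood groups at 0.90 and Dnaja1 at -0.16.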
